A study of Drosophila melanogaster with 12 samples.

Results

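The 6 genes described here divide the fly wing disc into its anterior and posterior compartments and pass the Hedgehog signal between them. They are the posterior selector genes engrailed (en) and invected (inv), the ligand hedgehog (hh), the receptor patched (ptc), the signal transducer smoothened (smo) and the transcription factor cubitus interruptus (ci). They were found by their symbols among the 17716 gene symbols of the deposited table of read counts, and all 6 passed the filter on low counts that left 9444 genes for testing.

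RNA came from wing imaginal discs of Drosophila melanogaster larvae in the last instar, at 6 days after egg laying. The wing disc is a sac of epithelium in the larva that gives rise to the wing and part of the thorax. Each of the 12 libraries was made from its own pool of 60 discs, with 3 libraries in each of 4 groups. The study asked what activated Notch and loss of the polarity gene scribble do alone and together. The groups are called WT (control), N (activated Notch), S (scribble mutant) and NS (activated Notch with scrib1).

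WT, N and NS larvae shared FRT82B tubGal80 on 1 homolog, the recombinase source abxUbx-Flp, and UAS eGFP under the driver Act>y+>Gal4. In such a genotype Gal4 works only in cells where the recombinase has removed the y+ cassette and where no Gal80 represses it, so the transgenes act in part of the disc. N larvae added UAS Nicd, the intracellular part of Notch, over an FRT82B chromosome without scrib1. NS larvae added UAS Nicd over FRT82B scrib1, and neither N nor NS carried a deficiency. S larvae had no driver and no transgene: they were w- and carried FRT82B scrib1 over Df(3R)BSC752, so that their discs were mutant throughout. S and WT therefore differ in genetic background as well as in scrib, and the 2 cannot be told apart. The same limit holds for NS against S, S against N and the interaction. There the driver, the deficiency and mutation throughout the disc cannot be told apart from effects of Notch or scrib. UAS Nicd also appears in the genotypes given for WT replicates 2 and 3, whose condition is nonetheless the control.

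In the wing disc, the posterior cells express en and inv, which encode related homeodomain proteins. These proteins switch hh on and keep ci off, so that posterior cells send Hedgehog and anterior cells receive it. Hedgehog binds Ptc, which otherwise holds Smo inactive, and the released Smo lets full-length Ci accumulate and switch on targets beside the compartment boundary. Those targets include ptc itself, dpp and kn. The levels of hh, en and inv in a whole disc therefore come mainly, though not only, from posterior cells, those of ci from anterior cells, and high ptc from the boundary stripe. In bulk RNA, fewer cells of a compartment and less RNA per cell cannot be told apart.

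Library totals were between 21024017 and 42407447 counts, and single members held 516 to 23094 counts in a library. All levels below are CPM, read counts relative to the library size after scaling for composition. Notch transcripts, with reads of the transgene included, ranged from 652 to 885 CPM in WT, 2016 to 2236 in N and 287 to 656 in S. NS replicates 1 and 2 had 1602 and 1458. The library labelled NS replicate 3 had 501, below every WT library, so its Notch transcript level does not show the activated Notch of its label. Other genes in NS replicate 3 went different ways. There wg was at 150.7 CPM, above WT (61.4 to 89.9) and S (54.8 to 74.5), while sd was at 205.6, below WT (417.3 to 483.8) and S (352.2 to 399.2). Transcripts of scrib ranged from 348.4 to 448.1 CPM in WT, 442.5 to 510.9 in N and 128.9 to 207.9 in S; NS replicates 1 and 2, at 393.6 and 434.2, lay in the WT range and NS replicate 3 was at 87.2, so in NS replicates 1 and 2 the scrib transcript level does not show the mutation given in their genotype. Long genes were low in NS replicate 3 and S replicate 3: across 9379 genes the Spearman correlation of exon length with the log2 difference from the other libraries of the group was −0.719 and −0.43, as a description, since genes are not replicates. Other libraries had length trends too, at 0.636 and 0.584 in NS replicates 1 and 2 and 0.436 and 0.2 in S replicates 1 and 2. The range was −0.251 to 0.365 in WT and −0.36 to 0.229 in N. Wing disc markers (7 genes such as nub, vg and sd) summed to 1513 to 1728 CPM in WT, 2556 to 2866 in N, 981 to 1112 in S and 817 to 2275 in NS. They did not move together. In NS replicates 1 and 2, wg was at 271.9 and 274.6 CPM, above WT (61.4 to 89.9). In the same libraries pdm2 was at 21.2 and 24.2 CPM, below WT (71.3 to 103.6). Haemocyte markers (5 genes) summed to 31.2 to 58.5 CPM in WT, 27.7 to 37.3 in N, 74.6 to 338 in S and 43.9 to 79.6 in NS. In NS they split: Pxn was at 30.2 to 49.8 CPM, above WT (11.3 to 23.6), and NimC1 at 0.542 to 0.688, below WT (2.26 to 4.52). The 3 tracheal markers did not move together: Gasp was at 155.8 to 179.6 CPM in WT and 351.5 to 424.9 in S, while btl was at 11.6 to 16.1 and 2.62 to 3.44 and trh at 71.0 to 88.9 and 35.1 to 45.2, and their sum was 261 to 269 CPM in WT, 204 to 256 in N, 397 to 473 in S and 218 to 337 in NS. Muscle precursor markers (4 genes) reached 154 to 188 CPM in WT, 111 to 122 in N, 126 to 141 in S and 78.2 to 115 in NS. In N, twi was at 15.8 to 17.3 CPM, below WT (31.6 to 44.5), while Mef2 at 75.1 to 82.9 overlapped with WT (77.4 to 83.3). Fat body markers (5 genes) ranged from 9.51 to 8456 CPM over all libraries. Neuronal markers (4 genes) ranged from 12.7 to 151 CPM, the highest in an S library. The part of these other cells in the results below was not tested.

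On the genome build BDGP6 (dm6), as annotated by Ensembl, en (FBgn0000577) lies on chromosome arm 2R from 11524006 to 11528210 on the minus strand. Its paralog inv (FBgn0001269) lies on the same arm from 11474465 to 11509695 on the plus strand, which leaves 14310 bases between the ends of these neighbours. ptc (FBgn0003892) occupies 8649649 to 8665223 of 2R, hh (FBgn0004644) 23128169 to 23141906 of 3R, smo (FBgn0003444) 277582 to 282167 of 2L and ci (FBgn0004859) 47710 to 57041 of chromosome 4. The exons of the members cover 2370 bases in hh, 2792 in en, 4008 in smo, 5521 in ptc, 5651 in ci and 5919 in inv. Of the exon bases of smo, 27.1% also belong to genes on the other strand, against 0.938% in ci and 0 in hh, en, inv and ptc. Whether the counting used strand is not given in the sources used here, so counts of smo are uncertain to that extent.

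The posterior genes hh, en and inv were 2.06- to 2.84-fold lower in scribble mutant discs than in WT, and 1.96- to 2.32-fold lower in NS than in N. The anterior gene ci, the boundary gene ptc and smo, which is transcribed in both compartments, passed the test in neither comparison. With activated Notch alone, none of the 6 genes passed the test against WT. These comparisons used edgeR's quasi-likelihood test with p-values adjusted by Benjamini-Hochberg over all 9444 genes and a threshold of 0.05. The p-values set a group difference against the spread between pools of the same group label, estimated over all 4 groups. That spread includes any differences within a label, such as those in the WT genotypes.

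The WT libraries, in the order of replicates 1 to 3, held the ligand gene hh at 50.1, 60.2 and 73.9 CPM, and the N libraries at 87.4, 77.5 and 73.7. The S libraries held it at 28.9, 25.5 and 32.6 CPM and the NS libraries at 34.9, 48.1 and 32.2. Every S and NS library lay below every WT and N library, while S and NS overlapped, as did WT and N. Here and below, such separation of libraries is a description. Its share over all genes was not counted, and genes that were not called, such as smo, cos and disp in S against WT, showed it too. The S to WT change was −1.08 ± 0.189 on the log2 scale (value ± SE), with an interval (95%) from −1.5 to −0.66, or 2.12-fold lower between the group means (edgeR adjusted p = 0.00274). The NS to N change was −1.05 ± 0.188, with an interval from −1.47 to −0.63, or 2.07-fold lower (edgeR adjusted p = 0.00686). These 2 comparisons share no library, but both take their spread from the same fit. The S and NS libraries of the same replicate number also deviated together (correlations from 0.327 to 0.493). The changes of hh in the 2 comparisons differed by 0.03, with an interval from −0.55 to 0.61.

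For the selector gene en, WT libraries gave 35.8, 46.1 and 57.5 CPM and N libraries 52.3, 52.6 and 43.4. S libraries gave 21.6, 23.4 and 22.6 CPM and NS libraries 19.4, 29.8 and 14.8. Again no S or NS library reached the lowest WT or N library, and the widest spread was in NS, where replicate 3 was lowest. The log2 change of en was −1.04 ± 0.242 from WT to S (2.06-fold, edgeR adjusted p = 0.0117) and −1.22 ± 0.243 from N to NS (2.32-fold, edgeR adjusted p = 0.0117). The call for NS against N was narrow: the edgeR adjusted p was 0.0593 in a fit of these groups alone and 0.0523 without N replicate 1.

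The paralog inv gave 120.7, 134.0 and 107.0 CPM for the WT libraries and 123.9, 102.5 and 120.9 for those of N. The S libraries gave 42.8, 36.3 and 48.1 CPM and the NS libraries 61.9, 67.5 and 47.9. WT and N lay in 1 range, and S and NS lay well below it, with NS replicates 1 and 2 above all S libraries and NS replicate 3 inside the S range. From WT to S, inv fell by 1.51 ± 0.167 on the log2 scale, 2.84-fold between the means (edgeR adjusted p = 0.000167). From N to NS it fell by 0.97 ± 0.165, 1.96-fold (edgeR adjusted p = 0.00523). With the counts corrected for exon length, inv, the longest of the 6 genes by exon bases, was still lower in S than in WT (−1.18, edgeR adjusted p = 0.00285). In NS against N its change became −0.40 and no longer passed (edgeR adjusted p = 0.252). With replicates 3 of NS and S left out instead, that change was −0.84 (edgeR adjusted p = 0.00137).

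**Figure D1:**
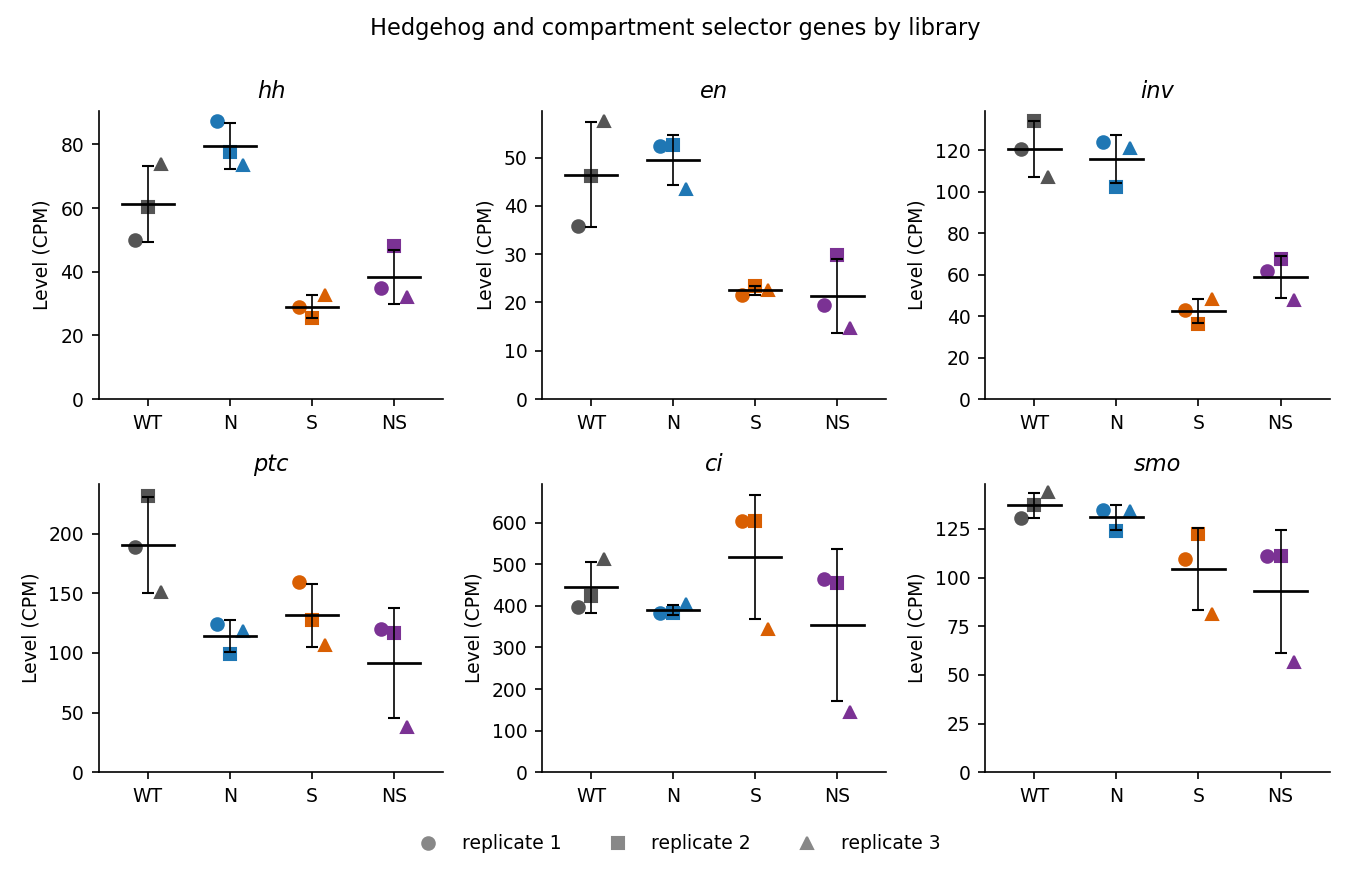
Level of each of the 6 genes in CPM (y axes, linear from 0) in the 12 libraries by group (x axes), with 1 symbol per replicate number and bars for the group mean ± SD, n = 3. All S and NS points of hh, en, inv and smo lie below all WT and N points, and the ptc, ci and smo points of NS replicate 3 lie below the others.

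These 3 posterior genes were the only members called in S against WT, 3 of 6 lower, where 10.6% of all genes tested were called lower. In NS against N, 3 of 6 were called lower, and 3.61% of all genes were. The median log2 change of the 6 members was −0.79 in S against WT and −0.73 in NS against N, beside 0.04 and 0.07 over all genes tested. In S against N the same genes passed, with log2 changes of −1.45 in hh (edgeR adjusted p = 0.000636), −1.13 in en (0.0104) and −1.45 in inv (0.000298), and no other member did; 6.05% of all genes were called lower there and 8.11% higher. This comparison shares its libraries with the others and adds no separate pools.

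NS against WT combined both changes of genotype, and hh, en and inv were again the members called lower, 3 of 6, beside 10.4% of all genes. The log2 changes were −1.13 ± 0.242 in en (edgeR adjusted p = 0.00829), −1.03 ± 0.165 in inv (0.00166) and −0.68 ± 0.187 in hh (0.0255). The hh call was the weakest: its edgeR adjusted p rose to 0.113 in a fit of NS and WT alone, to 0.0526 without NS replicate 3, to 0.0703 without WT replicate 2, to 0.0865 without WT replicate 3 and to 0.0677 without NS replicate 1. The fit of NS and WT alone also ended the en call (edgeR adjusted p = 0.0676), and the length correction ended the inv call (−0.48, 0.135). With WT replicate 1, whose genotype text holds no UAS Nicd, as the lone WT library, the inv calls remained in S against WT (−1.49, 0.00972) and NS against WT (−1.03, 0.0444). The hh and en changes kept their sign but missed the threshold there, at −0.77 (0.112) and −0.65 (0.3) in S and −0.38 (0.475) and −0.74 (0.251) in NS, all edgeR adjusted p-values, with the lone library assumed to vary like the other groups.

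Activated Notch in otherwise intact discs gave 0 calls among the 6 members by edgeR and 0 by DESeq2. Of all genes, edgeR called 3.08% and DESeq2 8.59% in either direction. At an unadjusted edgeR p under 0.05 the number was 0 of 6, beside 16.2% of all genes. The log2 change of hh was 0.37, with an interval from −0.04 to 0.79 (edgeR adjusted p = 0.367), and N replicate 3 lay just under the highest WT library. For en the change was 0.09 with an interval from −0.44 to 0.62, and for inv it was −0.06 with an interval from −0.42 to 0.30. In this fit the intervals exclude a 2-fold change of the posterior genes in either direction, but they leave room for smaller ones. They rest in part on WT replicates 2 and 3, whose genotype text lists UAS Nicd. Over the alternative settings the estimate reached 0.69 in hh and 0.48 in en.

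ptc was likewise not called in N against WT, but it was in some alternative settings. The WT libraries had 189.2, 232.1 and 151.4 CPM of ptc and the N libraries 124.5, 99.5 and 118.7. The S libraries had 159.8, 127.9 and 106.8 CPM and the NS libraries 119.8, 116.8 and 37.9. All N libraries and all NS libraries lay below the lowest WT library, S overlapped with WT, and NS replicate 3 was far under the other NS libraries. The N to WT difference was −0.74 with an interval from −1.54 to 0.06 (1.67-fold between means, edgeR adjusted p = 0.36), and the NS to WT difference was −1.06 with an interval from −1.87 to −0.25 (2.09-fold, edgeR adjusted p = 0.0576).

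The result for ptc depended on NS replicate 3, which enters the estimate of the spread in every comparison. Without that library the N to WT difference was still −0.73 and the edgeR adjusted p was 0.0305, with 1 of 6 members and 4.48% of all genes called lower. With replicates 3 of both NS and S left out it was −0.75 (0.01), and with the length correction −0.75 (0.0118). The NS to WT difference became −0.69 without NS replicate 3 and then passed (edgeR adjusted p = 0.0274). It also passed with DESeq2 (adjusted p = 0.0146). In S against WT, ptc differed by −0.54 (edgeR adjusted p = 0.295), which passed only once NS replicate 3 was left out (0.029), and the length correction gave −0.27 (0.175). In a fit of N and WT alone, ptc was also lower in N (edgeR adjusted p = 0.0209). The N to WT difference of ptc passed in 4 of 21 alternative settings. It did not pass with DESeq2 (adjusted p = 0.244), and its edgeR adjusted p reached 0.826. Between NS and N the ptc difference was −0.32 (edgeR adjusted p = 0.558), and it was 0.04 without NS replicate 3.

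ci, which encodes the transcription factor of the pathway and is made by anterior cells, gave 396.2, 424.3 and 513.1 CPM for the WT libraries and 383.3, 382.0 and 404.6 for those of N. The S libraries gave 603.0, 604.3 and 344.1 CPM and the NS libraries 464.5, 454.1 and 143.9. S replicates 1 and 2 were the highest of all 12 libraries, whereas S replicate 3 lay below every WT library and NS replicate 3 below all others. The difference was 0.22 in S against WT, with an interval from −0.61 to 1.05 (edgeR adjusted p = 0.689), and −0.14 in NS against N, with an interval from −0.97 to 0.69 (0.813). Without both replicates 3 the S to WT change of ci was 0.43 (edgeR adjusted p = 0.00898), where 47.5% of all genes were called in either direction. With the length correction it was 0.47 (0.046), where 38.1% were. The sign of the NS to N difference then turned, to 0.24 and 0.20 (0.154 and 0.442).

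smo, the transducer that Ptc holds inactive, varied least of the 6 over the 12 libraries: the root mean square of its log2(CPM + 1) about its mean was 0.365, against 0.51 to 0.656 in the others. The WT libraries had 130.7, 137.0 and 143.7 CPM of smo and the N libraries 134.8, 123.7 and 134.2. The S libraries had 109.4, 122.4 and 81.0 CPM and the NS libraries 111.1, 111.1 and 56.4. All S and NS libraries lay below all WT libraries and below all N libraries, with the replicates 3 of S and NS the lowest. The differences missed the threshold in all 7 comparisons, with −0.39 in S against WT (edgeR adjusted p = 0.249) and −0.56 in NS against WT (0.112). Without NS replicate 3 the S to WT difference of −0.40 passed (edgeR adjusted p = 0.0282), and 5 of 6 members (hh, en, inv, ptc and smo) were then called lower, beside 20.6% of all genes. With the length correction the difference was −0.24 (0.0735).

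**Figure D2:**
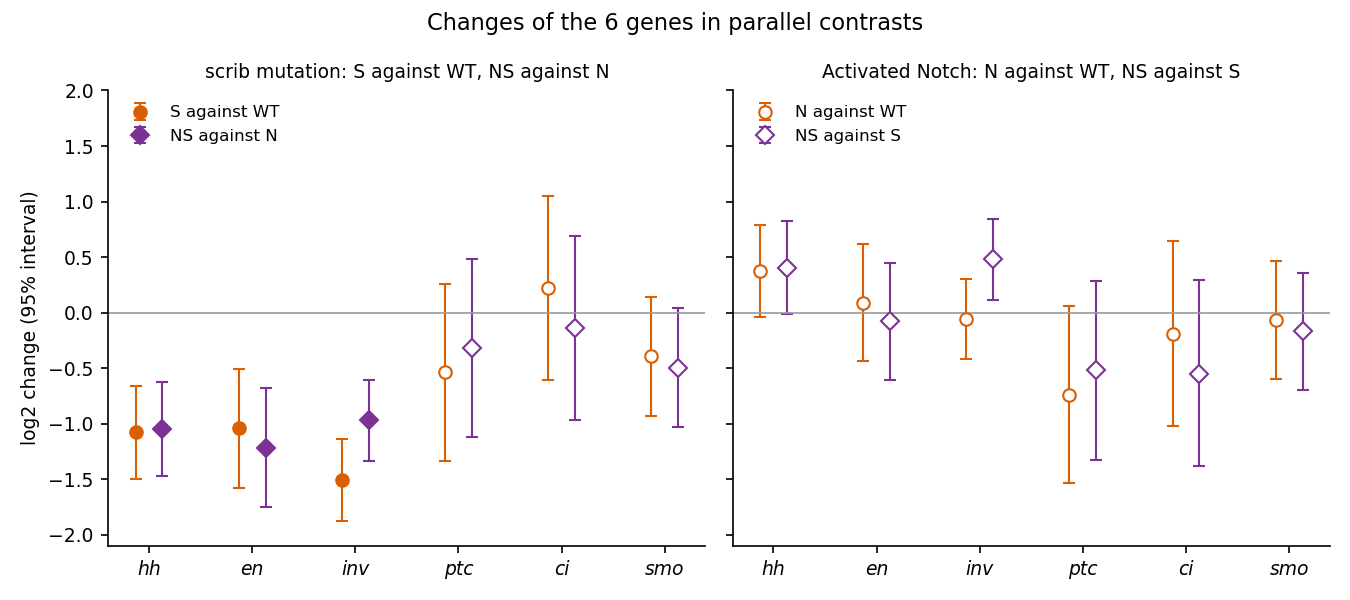
Log2 change (y axes) with its 95% interval (lines) of the 6 genes (x axes) by edgeR, for S against WT and NS against N (left) and N against WT and NS against S (right), filled where the adjusted p passed 0.05. The intervals of hh, en and inv lie wholly below 0 on the left, and those of ptc, ci and smo cross 0; in N against WT all 6 intervals cross 0.

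Ordered by group mean, hh was highest in N at 79.5 ± 7.10 CPM (SD, n = 3), followed by WT at 61.4 ± 11.96, NS at 38.4 ± 8.52 and S at 29.0 ± 3.53. The neighbours N and WT, and NS and S, did not differ beyond their spread, and the step from WT to NS did. For en the order was N at 49.4 ± 5.23, WT at 46.4 ± 10.8, S at 22.5 ± 0.869 and NS at 21.3 ± 7.68 CPM, and for inv it was WT at 120.6 ± 13.5, N at 115.7 ± 11.6, NS at 59.1 ± 10.1 and S at 42.4 ± 5.88 CPM. In both genes the step between the higher and the lower pair of groups passed the test, and the steps within the pairs did not. In ptc (WT, S, N, NS), ci (S, WT, N, NS) and smo (WT, N, S, NS) no neighbours in the order of group means differed beyond their spread.

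Per exon length, ci was the most abundant member in every group, at 78.7 CPM per kilobase in WT, 69.0 in N, 91.5 in S and 62.7 in NS. In WT it was followed by ptc at 34.6, smo at 34.2, hh at 25.9, inv at 20.4 and en at 16.6 CPM per kilobase. In N, hh came next after ci at 33.6 CPM per kilobase, and ptc at 20.7 came after smo at 32.7. In S the 3 posterior genes were the lowest, with hh at 12.2, en at 8.06 and inv at 7.16 CPM per kilobase. In NS they were also the lowest, with hh at 16.2, inv at 9.98 and en at 7.64, and ptc stood just above hh at 16.6.

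The share of a posterior gene relative to ci within a library does not depend on library scaling. Of the 3 posterior genes, inv is closest to ci in exon length. That did not keep their ratio stable in NS replicate 3. The level of inv per kilobase was 29.1%, 30.2% and 19.9% of that of ci in WT and 30.8%, 25.6% and 28.5% in N. It was 6.77%, 5.74% and 13.3% in S, and 12.7%, 14.2% and 31.7% in NS. All S libraries were below all WT and N libraries, and so were NS replicates 1 and 2, whereas NS replicate 3 was above them. In that library ci was further below its level in the other NS libraries than hh, en and inv were.

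For hh the corresponding share of ci was 30.1% to 34.3% in WT, 43.4% to 54.4% in N and 10.1% to 22.6% in S. In NS it was 17.9%, 25.3% and 53.4%, so NS replicates 1 and 2 lay below all WT libraries, and replicate 3 lay among the N libraries. The share of hh was higher in every N library than in any WT library, a ratio that follows a small upward difference of hh and a small downward difference of ci, neither of which was called. For en the share was 18.3% to 22.7% in WT, 21.7% to 27.9% in N, 7.26% to 13.3% in S and 8.46% to 20.8% in NS. The share of ptc was 30.2% to 56.0% in WT, 26.7% to 33.2% in N, 21.7% to 31.8% in S and 26.3% to 27.0% in NS, and it overlapped between WT and both N and S. NS replicate 3 did not stand apart in the ptc share, at 27.0%.

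**Figure D3:**
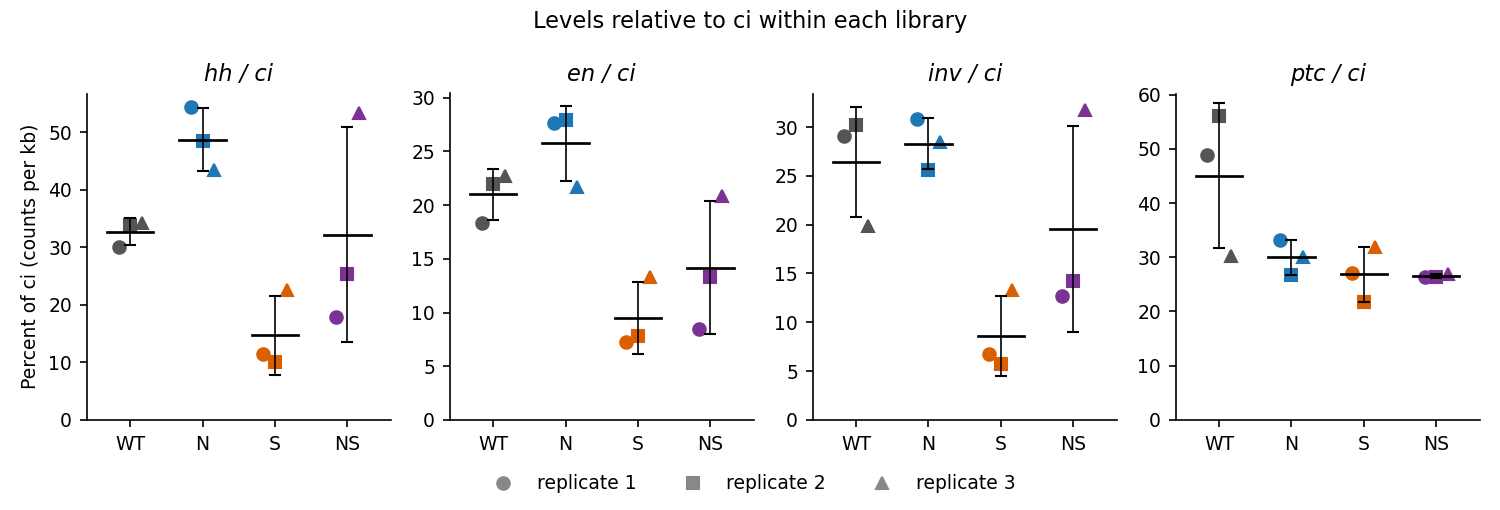
Level per kilobase of hh, en, inv and ptc as a percentage of that of ci in the same library (y axes, linear from 0) in the 4 groups, with 1 symbol per replicate number and bars for the group mean ± SD, n = 3. S has the lowest mean for hh, en and inv, and NS replicate 3 lies above NS replicates 1 and 2 for these genes but at 27.0% beside them for ptc.

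The neighbours en and inv did not keep a fixed ratio. The level of en per kilobase was 62.9% to 114% of that of inv in WT, 76.1% to 109% in N, 99.5% to 136% in S and 65.5% to 93.6% in NS. The ranges of S and NS did not touch, with inv relatively higher in NS and en relatively higher in S. The ratio of hh to en per kilobase was 151% to 165% in WT, 174% to 200% in N, 129% to 170% in S and 190% to 256% in NS. It was thus higher in every library with UAS Nicd as its condition than in any WT or S library, a pattern seen after the values were known and not tested.

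Between NS and S, edgeR called 0 of 6 members, where 2.18% of all genes were called lower and 1.51% higher. DESeq2 also called 0, where 9.22% of all genes were called in either direction. At an unadjusted edgeR p under 0.05 the number was 1 of 6, a share close to the 16.8% of all genes. That member was inv, higher in NS by 0.48 with an interval from 0.11 to 0.84 (edgeR adjusted p = 0.157). The inv difference passed at 0.60 without NS replicate 3 (0.0323) and at 0.71 without both replicates 3 (0.00773). The difference of hh was 0.40 with an interval from −0.01 to 0.82 (edgeR adjusted p = 0.313), and that of en was −0.08 with an interval from −0.61 to 0.45 (0.909). ptc differed by −0.52 (0.544), ci by −0.55 (0.54) and smo by −0.17 (0.793). ptc and ci were lower in NS than in S at each of the 3 replicate numbers, which are not known to mark paired pools. With the replicate block their differences were −0.60 and −0.59 (edgeR adjusted p = 0.423 and 0.524).

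The interaction asked whether the NS to N change differed from the S to WT change. Only S lacked the driver and carried a deficiency, so a difference could not be assigned to Notch. edgeR called 0 of 6 members and DESeq2 0, where they called 1.28% and 4.89% of all genes in either direction. At an unadjusted edgeR p under 0.05 the number was 1 of 6, a share close to the 13.2% of all genes. The difference of changes was −0.17 in en, with an interval from −0.92 to 0.58, and 0.54 in inv, with an interval from 0.02 to 1.05 (edgeR adjusted p = 0.355). It was 0.22 in ptc, −0.36 in ci and −0.10 in smo (edgeR adjusted p = 0.895, 0.828 and 0.93). The inv interaction was called only without both replicates 3 (0.79, edgeR adjusted p = 0.0215).

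**Figure D4:**
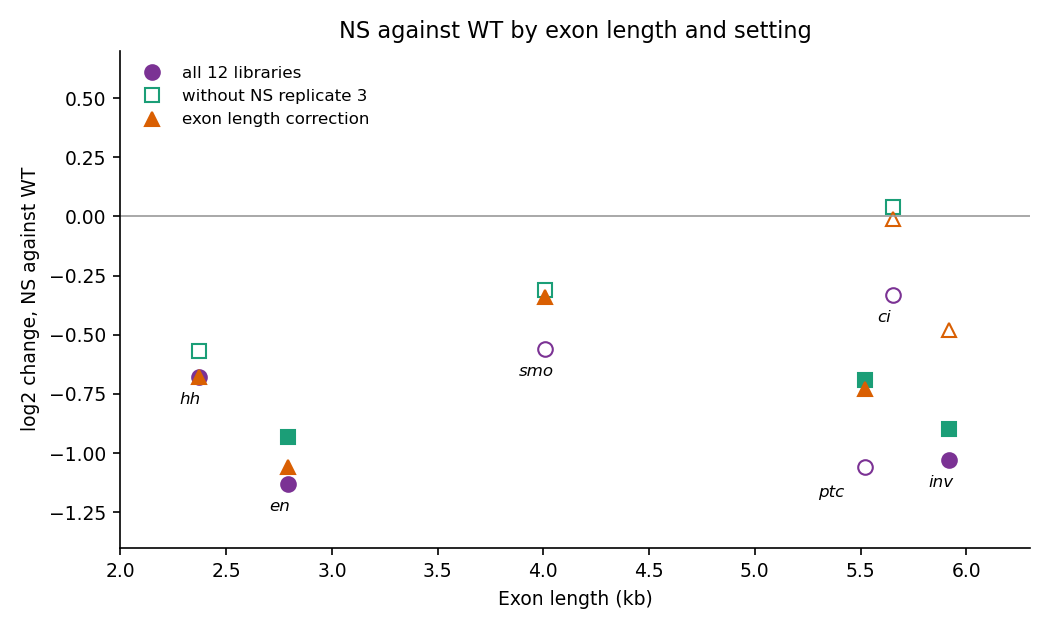
Log2 change in NS against WT (y axis) of the 6 genes against their exon length in kilobases (x axis), with circles for all 12 libraries, squares for the fit without NS replicate 3 and triangles for the exon length correction, filled where the adjusted p passed 0.05. The 3 estimates of hh and en lie close together, while ci moves from −0.33 to 0.04 and −0.01, ptc from −1.06 to −0.69 and −0.73, and inv from −1.03 to −0.48 with the length correction.

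The rest of the pathway was followed in 33 further genes, all of which were tested: 9 for release and spread of the ligand, 2 co-receptors, 12 for cytoplasmic transduction and Ci processing, 6 boundary targets, and 4 partners of the selectors with the dorsal selector ap. In S against WT, 3 of 33 fell and 0 rose, a share of falls close to the 10.6% of all genes, with a median log2 change of −0.19 beside 0.04 over all genes. In NS against N, 3 fell beside 3.61% of all genes and 0 rose (median −0.45 beside 0.07), and in NS against WT, 8 fell beside 10.4% and 0 rose (median −0.47 beside 0.03). In N against WT edgeR called 0, beside 3.08% of all genes in either direction (median −0.01 beside 0.01), and DESeq2 called 1, beside 8.59%. At an unadjusted edgeR p under 0.05 the number was 1 of 33, beside 16.2% of all genes. In NS against S, 2 fell beside 2.18% of all genes (median −0.17 beside 0.01). In S against N, 1 rose beside 8.11% and 2 fell beside 6.05% (median −0.24 beside 0.05). In the interaction edgeR called 0 beside 1.28% (median −0.30 beside −0.01) and DESeq2 1 beside 4.89%. There, 6 of 33 had an unadjusted edgeR p under 0.05, beside 13.2% of all genes.

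Among the boundary targets, kn (knot or collier), a transcription factor gene switched on by high Hedgehog signal between the vein primordia of the wing, had the largest log2 change of the 33 genes in S against WT and in NS against WT. The WT libraries had 32.1, 35.4 and 30.6 CPM of kn and the N libraries 9.70, 6.95 and 11.6. The S libraries had 2.38, 1.06 and 0.0268 CPM, from 91, 34 and 1 counts, and the NS libraries 1.24, 1.92 and 0.229, from 47, 39 and 8 counts. The 4 groups fell into 3 levels, with WT highest, N between and S and NS together near the bottom. The log2 change was −4.81 ± 0.986 in S against WT (28.3-fold between means, edgeR adjusted p = 0.0063) and −4.89 ± 0.997 in NS against WT (28.9-fold, 0.00635). Levels of 1 and 8 counts make the size of these folds imprecise.

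In N against WT the kn difference was −1.80, with an interval from −3.68 to 0.09 (edgeR adjusted p = 0.339), although the groups' libraries did not overlap. It was −1.81 without both replicates 3 and then passed (edgeR adjusted p = 0.00322). The differences of kn in NS against N (−3.09, edgeR adjusted p = 0.0705) and S against N (−3.02, 0.0526) missed the threshold and passed with DESeq2 (0.00672 and 0.00502). In NS against S it was −0.07 (0.979), and in the interaction 1.72 (0.612).

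dpp, the BMP ligand gene transcribed along the compartment boundary, passed in none of the comparisons. The WT libraries had 68.3, 80.0 and 80.5 CPM of dpp and the N libraries 105.7, 91.8 and 86.7. The S libraries had 105.4, 106.5 and 97.4 CPM and the NS libraries 91.5, 94.9 and 49.8. All N and S libraries lay above all WT libraries, as did NS replicates 1 and 2. The differences were 0.31 in N against WT (edgeR adjusted p = 0.565), 0.43 in S against WT (0.157), 0.05 in NS against WT (0.89), −0.27 in NS against N (0.403), −0.39 in NS against S (0.409), 0.12 in S against N (0.72) and −0.70 in the interaction (0.351). The S to WT difference of 0.43 passed once NS replicate 3 was left out (edgeR adjusted p = 0.00541), and the length correction gave 0.70 (0.000586). With that correction dpp was also higher in NS than in WT (0.44, edgeR adjusted p = 0.00882) and in S than in N (0.40, 0.0182). In S discs the kn libraries thus lay below, and the dpp libraries above, those of WT.

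The Iroquois genes ara and caup, neighbouring homeobox genes needed for veins and the notum, fell in NS and were not called in S. ara ranged from 100.2 to 127.5 CPM in WT, 86.6 to 111.0 in N, 32.6 to 82.8 in S and 17.0 to 40.7 in NS. Its log2 change was −1.94 in NS against WT (edgeR adjusted p = 0.00396) and −1.80 in NS against N (0.0115), and caup changed by −1.97 (0.00821) and −1.88 (0.0215). The differences in S against WT were −0.88 in ara (0.0926) and −0.59 in caup (0.176). The tests of the difference itself gave −0.93 (edgeR adjusted p = 0.465) and −1.29 (0.374), so the changes were not shown to differ between the contrasts. vn, which encodes a ligand of the EGF receptor, was lower in NS than in S (−1.88, edgeR adjusted p = 0.0346), with 137.7 and 113.8 CPM in S replicates 1 and 2, 63.4 in S replicate 3, and 10.8 to 38.8 CPM in NS. The vn call passed in 10 of 21 alternative settings, with an edgeR adjusted p of up to 0.254.

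**Figure D5:**
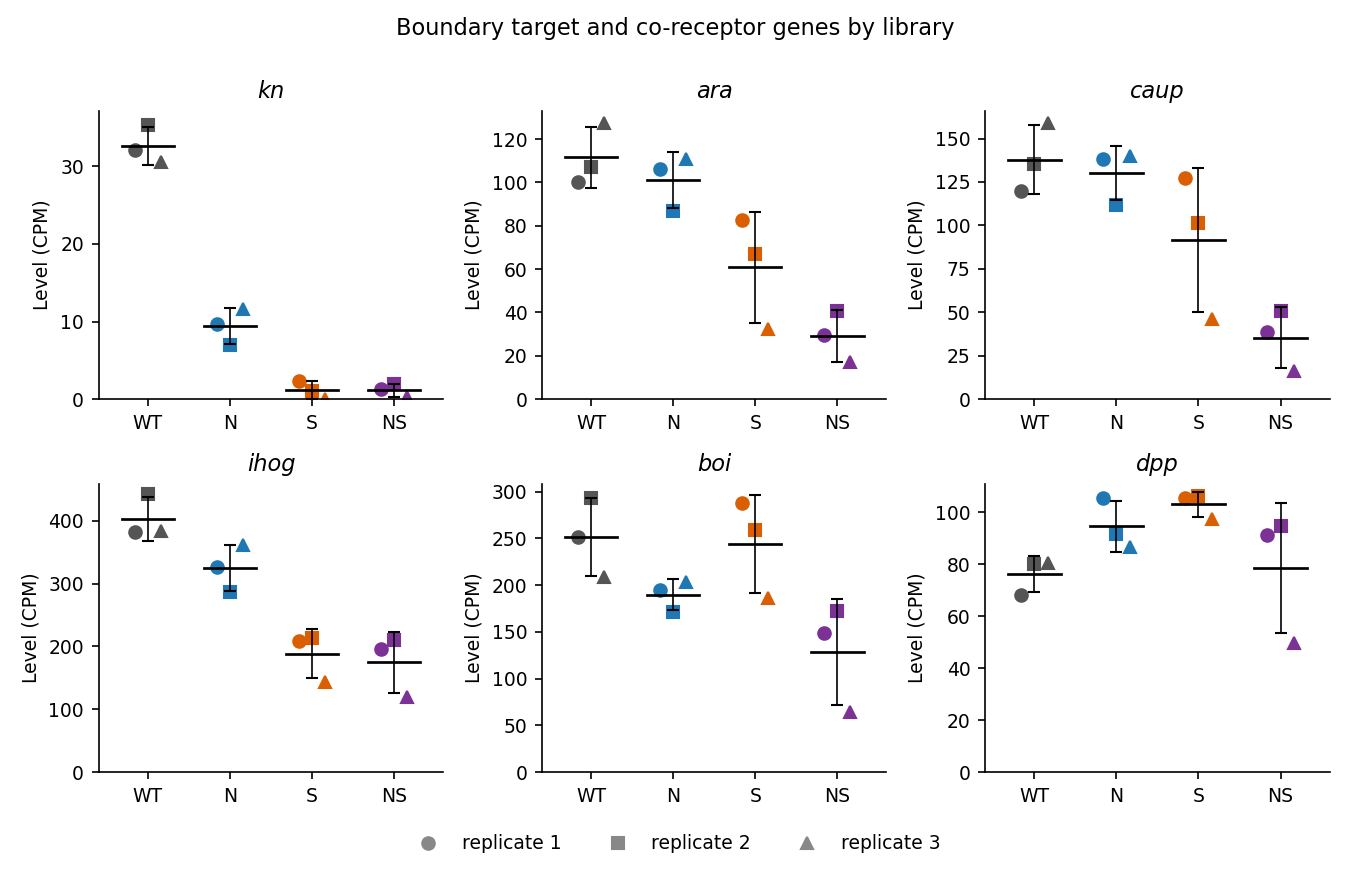
Level in CPM (y axes, linear from 0) of the boundary targets kn, ara, caup and dpp and the co-receptor genes ihog and boi in the 4 groups, with 1 symbol per replicate number and bars for the group mean ± SD, n = 3. kn is highest in WT, intermediate in N and near 0 in S and NS, while the dpp libraries of N and S lie above those of WT.

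The co-receptor gene ihog, whose product binds Hedgehog together with Ptc, was lower in S and in NS. The WT libraries had 381.3, 442.3 and 384.3 CPM of ihog and the N libraries 326.8, 287.0 and 361.0. The S libraries had 208.1, 214.0 and 143.5 CPM and the NS libraries 195.7, 209.7 and 119.7. All S and NS libraries lay below all WT and N libraries. The log2 change was −1.09 in S against WT (edgeR adjusted p = 0.00662), −1.20 in NS against WT (0.00431), −0.89 in NS against N (0.0374) and −0.79 in S against N (0.0422). It was −0.31 in N against WT (0.603), −0.11 in NS against S (0.865) and 0.20 in the interaction (0.838). The call passed in 13 of 21 alternative settings in NS against N and in 9 of 21 in S against N, where its adjusted p reached 0.155.

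boi, the second co-receptor gene, fell in NS against WT only (−0.97, edgeR adjusted p = 0.0474), and its edgeR adjusted p reached 0.312 over the alternatives, of which 9 of 21 passed. In S against WT boi differed by −0.04 (edgeR adjusted p = 0.931), in N against WT by −0.41 (0.639), in NS against N by −0.56 (0.253), in NS against S by −0.93 (0.154), in S against N by 0.36 (0.458) and in the interaction by −0.52 (0.685). Among the genes for spread of the ligand, shf, a secreted factor needed for Hedgehog movement, was lower in S than in WT (−0.76, edgeR adjusted p = 0.00914) and N (−1.02, 0.0025). nord, which encodes a secreted modulator of BMP signals, was lower in NS than in WT (−0.55, 0.027) and S (−0.86, 0.0123), and higher in S than in N (0.79, 0.00651).

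Of the 12 genes of the cytoplasmic machinery, 2 fell in NS against WT, Pka-C1, a kinase that phosphorylates Ci (−0.90, edgeR adjusted p = 0.0498), and Cul1, a ubiquitin ligase scaffold (−0.49, 0.0421), where 10.4% of all genes fell. Both calls were weak: Pka-C1 passed in 8 of 21 alternative settings and Cul1 in 7, with edgeR adjusted p-values up to 0.498 and 0.483, and the length correction gave −0.50 (0.0104) and −0.19 (0.186). Of the 4 selector partners and dorsal selector (exd, hth, gro and ap), edgeR and DESeq2 called 0 in each of the 7 comparisons, and 0 had an unadjusted edgeR p under 0.05, with median log2 differences from −0.44 (NS against N) to 0.10 (N against WT). The differences of fu, the kinase of the complex, were between −0.59 (NS against N, edgeR adjusted p = 0.141) and 0.08 (N against WT, 0.956). Those of cos, its kinesin-like scaffold, were between −0.70 (NS against N, 0.187) and 0.05 (N against WT, 0.984). Those of Su(fu), which restrains Ci, were between −0.36 (S against WT, 0.146) and 0.32 (interaction, 0.634).

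The likeness of other genes to the members was measured as the root mean square distance between log2(CPM + 1) values, each centred on its own mean over the 12 libraries, among 6833 genes with a mean of at least 5 CPM. The nearest genes were CG31712 (0.193), CG4562 (0.205) and AGO3 (0.229) for hh, and CG31211 (0.239), hh (0.242) and CG2321 (0.249) for en. For inv they were CG3376 (0.154), Snap25 (0.177) and ckd (0.186). They were CG42788 (0.151), how (0.159) and Cdep (0.181) for ptc, PMCA (0.159), net (0.161) and mop (0.173) for ci, and CG2247 (0.064), mor (0.0725) and Fmr1 (0.078) for smo. Among the members, hh and en (0.242), hh and inv (0.261) and en and inv (0.339) were close, as were ci and smo (0.329), ptc and smo (0.368) and ptc and ci (0.371). Distances between the posterior genes and ptc or ci were from 0.599 to 0.823. The points share groups, libraries and the low values of NS replicate 3, and without that library the nearest 3 genes kept 1 member for hh, en, inv and smo, 2 for ptc and 0 for ci, so these neighbours are a description of these libraries.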

How the data were processed

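Polyadenylated RNA of pooled wing discs was extracted with Trizol and sequenced from stranded libraries, per the labels' protocols. The authors deposited whole-number read counts per gene symbol and library. The submitters' processing notes name TopHat2 2.0.9, Bowtie2 2.1.0, HTSeq, edgeR, DESeq and the build dm6; the annotation release and the use of strand in counting were not given in the sources used here.

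Tests used edgeR 4.0.16 (R 4.3.3): filterByExpr kept 9444 of 17716 symbols, libraries were scaled by TMM, and a robust quasi-likelihood model with 1 coefficient per group was fitted to all 12 libraries (8 residual degrees of freedom). The threshold was a Benjamini-Hochberg adjusted p of 0.05 over all genes tested. CPM values use the TMM-scaled library sizes. Fold values are ratios of group means of CPM, and log2 changes come from the fit. The 6 members, the pathway lists, the marker lists and the rule for other named genes were chosen with earlier results of these data known. That rule took, in each comparison, up to 4 called genes of each list, and dpp, kn, fu, cos, Su(fu), ihog and boi in every comparison. Exon lengths and positions came from the Ensembl annotation of BDGP6, which gave lengths for 99.3% of the genes tested. The length correction fits in each library a lowess trend (span 0.3) on exon length. The trend is of log2 CPM minus the mean of the gene over the 12 libraries, and it enters the model as an offset. The correction therefore also takes out length trends that differ between groups.

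Alternatives were fits with DESeq2 1.42.0, with no filter, with library totals or RLE factors as scaling, with a block for replicate number, with only the groups compared, without each library, without replicates 3 of NS and S, with the length correction, and with WT replicate 1 as the lone WT library. Replicate numbers were checked for pairing by the correlation of deviations from group means. For NS and S all 3 correlations lay between 0.327 and 0.493. The fit behind the reported values held no block, and only the block alternative used the numbers. The length trends of S and NS libraries of equal number also had the same sign. The correlations therefore do not show that pools were paired. The tests were tried on simulated counts first. No pair of libraries had identical counts. No sequences are shown.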

Additional observations from a re-analysis of the deposited data

How the results depend on the processing

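Of 876 values of member changes under alternatives, 810 kept their sign and side of the threshold, 14 lost a call, 24 gained one and 28 changed sign; none of those 28 had been called. Scaling by library totals moved the median log2 change of all genes from 0.03 to −0.13 in NS against WT, from 0.07 to −0.10 in NS against N, from 0.05 to −0.08 in S against N and from 0.04 to −0.07 in S against WT, and hh, en and inv stayed called lower in these. The replicate block changed no member call in NS against S. It made ptc pass in NS against WT (−1.14, edgeR adjusted p = 0.0335), where libraries of equal number correlated at −0.019 to 0.23.

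Signs turned for hh in the interaction (−0.01 with library totals, −0.29 with WT replicate 1 alone) and smo in N against WT (0.02, WT replicate 1 alone). Without both replicates 3 they turned for en in NS against S (0.13) and the interaction (0.05), ptc in NS against N (0.05), ci in NS against WT (0.04) and NS against N (0.24), and smo in the interaction (0.02). With the length correction they turned for ptc (0.02) and ci (0.20) in NS against N. The cause was not tested.

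The number of members called went from 0 to 1 in N against WT in a fit of the groups alone, without both replicates 3 and with the length correction. It went from 3 to 5 without both replicates 3 in S against WT, with ci called higher, and in NS against WT. In NS against WT it went from 3 to 1 with the groups alone. In S against N it went from 3 to 5 with the length correction, with 3 lower and 2 higher. It went from 0 to 1 in NS against S and the interaction without both replicates 3.

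These settings changed calls in general. Of all genes tested, the share called in S against WT was 23.1% as reported, 32.6% with DESeq2, 31.2% with the groups alone, 47.5% without both replicates 3, 38.1% with the length correction and 5.99% with WT replicate 1 alone. In NS against WT these shares were 24.3%, 32.1%, 11%, 33.7%, 32.8% and 5.62%, in NS against N 7.8%, 17.3%, 5.6%, 17%, 16.1% and 3.54%, and in N against WT 3.08%, 8.59%, 14.9%, 15.3%, 8.43% and 1.03%. In NS against S they were 3.7%, 9.22%, 0.473%, 13.2%, 8.25% and 1.44%, and in S against N 14.2%, 21.5%, 30.7%, 36.5%, 26.2% and 7.25%. In the interaction they were 1.28%, 4.89% with DESeq2, 9.32% without both replicates 3 and 3.58% with the length correction. Without NS replicate 3 alone, 44% were called in S against WT and 34.3% in S against N.

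The number of the 33 other pathway genes called, in N against WT (0), was 1 with DESeq2, 4 with the groups alone, 7 without both replicates 3 and 2 with the length correction. In S against WT (3) it was 8 with the groups alone, 20 without both replicates 3 and 15 with the length correction (8 lower and 7 higher, median log2 change −0.03). In NS against WT (8) it was 5 with no filter, 4 with the groups alone, 16 without both replicates 3 and 16 with the length correction (14 lower and 2 higher). In NS against N (3) it was 8 with DESeq2, 1 with the groups alone, 10 without both replicates 3, 8 with the length correction and 1 with WT replicate 1 alone. In NS against S (2) it was 4, 0, 7, 8 and 1 in that order. In S against N (3) it was 8 with the groups alone, 15 without both replicates 3 and 12 with the length correction (5 lower and 7 higher). In the interaction (0) it was 1 with DESeq2, 4 without both replicates 3 and 2 with the length correction.

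With each library left out in turn, the log2 difference ranged from −0.16 to 0.15 for hh in the interaction, from −0.06 to 0.28, −0.38 to 0.12 and −0.48 to 0.02 for en in N against WT, NS against S and the interaction, and from −0.13 to 0.03 for inv in N against WT. It ranged from −0.57 to 0.04 and −0.03 to 0.58 for ptc in NS against N and the interaction, from −0.57 to 0.04, −0.39 to 0.22 and −0.61 to 0.01 for ci in NS against WT, NS against N and the interaction, and from −0.32 to 0.09 and −0.26 to 0.15 for smo in NS against S and the interaction. The number of members called ranged from 0 to 1 in N against WT, from 3 to 5 in S against WT and from 0 to 1 in NS against S, each higher number without NS replicate 3. The number of other pathway genes called ranged from 0 to 2 in N against WT, 3 to 17 in S against WT and 2 to 13 in S against N. Each highest number came without NS replicate 3, with 2 higher, with 14 lower and 3 higher, and with 11 lower and 2 higher, in that order. In the interaction the number of other pathway genes called ranged from 0 to 1 (without NS or S replicate 3). It ranged from 4 to 11 in NS against WT (5 without any 1 of the N libraries, S replicates 1 and 2, or WT replicate 1, and 4 once WT replicate 2 or WT replicate 3 was left out), from 0 to 5 in NS against N (0 without N replicate 3, 1 without N replicate 1, 5 without S replicate 3) and from 0 to 4 in NS against S (0 without NS replicate 1, 4 without NS or S replicate 3, 2 without NS replicate 2, and 1 otherwise). With all 12 libraries in the fit, the intervals of ptc and ci were wide, and fits without NS replicate 3 or without both replicates 3 called some of their differences.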
